A study of Mus musculus with 27 samples.

Results

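The 10 genes described here, Dct, Tyr, Tyrp1, Pmel, Mlana, Slc45a2, Slc24a5, Oca2, Gpr143 and Trpm1, serve melanin synthesis and the melanosome. They were listed by name for that function, with earlier results of these data known, out of 55487 genes in the count table, and all 10 passed the filter on low counts that left 16330 genes. Their RNA was measured by Geo-seq, in which small pieces of tissue are cut from frozen sections by laser and sequenced, at embryonic day 14 in the mouse optic stalk. The stalk is the epithelial tube between the eye cup and the forebrain, and its cells become the astrocytes of the optic nerve. A dorsal piece, a ventral piece and a piece of the region holding retinal ganglion cell axons (axons) came from each of 4 control and 5 mutant embryos, which gives 27 libraries in 6 groups. Per the study's methods, mutants (Smarcc1-DCT-cKO) carried Baf155 (Smarcc1) loxP/loxP with Dct-Cre and the Z/EG reporter, and controls were littermates without Dct-Cre, all on C57Bl6/J. Smarcc1 holds together the SWI/SNF complexes, which remodel chromatin. The Cre is driven by sequences of Dct, itself 1 of the 10 genes, and is active in the pigment epithelium and in the stalk. Whether the transgene carries exons of Dct is not given in the sources used here, and any Dct reads from it cannot be told apart from an effect of genotype.

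Melanin is made inside melanosomes, organelles of the retinal pigment epithelium (RPE) and of melanocytes that derive from the neural crest. Tyr encodes tyrosinase, which starts the pathway by oxidising tyrosine. Tyrp1 and Dct encode related enzymes that act on later intermediates. Pmel forms the fibrils on which the pigment is laid down, and Mlana is a melanosomal membrane protein that binds Pmel. Slc45a2, Slc24a5 and Oca2 encode transporters that set the ionic conditions inside the pigment organelles, Gpr143 encodes a receptor of the melanosome membrane that controls organelle size, and Trpm1 encodes a cation channel of melanocytes and of retinal bipolar cells. The optic stalk and the RPE arise from neighbouring parts of the optic vesicle, and Mitf, the master regulator of pigment cells, binds E-box sequences in the promoters of many of these genes.

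Promoter sequence was looked up for the 10 genes because Mitf binds the 7 letters TCATGTG, the core of the M-box. Windows of 250 bases before to 50 bases after the transcription start (RefSeq, GRCm38.p6) were found for 6 of the 10 genes, Dct, Tyr, Tyrp1, Slc24a5, Oca2 and Trpm1. These genes have 7 windows. On either strand TCATGTG stood in the 250 bases upstream in 5 of the 7, from 5 genes, against 1068 of 32851 windows of all genes (3.25%). The shorter CATGTG, which lies within TCATGTG, was found in 6 of 7 against 4025 of 32851 windows (12.25%). The match in each gene is printed below with its flanks, on the strand of the gene, with TCATGTG or its reverse complement in capitals.
Tyr (chr7:87493513-87493554, minus strand): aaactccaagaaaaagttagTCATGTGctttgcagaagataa
Tyrp1 (chr4:80834146-80834192, plus strand): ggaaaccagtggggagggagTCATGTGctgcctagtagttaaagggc
Dct (chr14:118052371-118052417, minus strand): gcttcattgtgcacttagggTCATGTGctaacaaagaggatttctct
Dct, a further match (chr14:118052452-118052496, minus strand): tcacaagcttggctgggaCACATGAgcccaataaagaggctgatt
Trpm1 (chr7:64153673-64153719, plus strand): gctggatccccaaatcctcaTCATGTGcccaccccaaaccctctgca
Slc24a5 (chr2:125068094-125068126, plus strand): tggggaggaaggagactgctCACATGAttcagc
The matches begin 22 bases before the start in Tyr, 47 in Tyrp1, 151 and 232 in Dct, 142 in Trpm1 and 13 in Slc24a5, counted from the RefSeq start. The GENCODE start of Tyrp1, given below, lies upstream of the RefSeq one, so that this match falls within the GENCODE gene. A match of letters is a description of the sequence and was not tested for binding in these samples.

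Totals ranged from 10.9 to 34.0 M counts per library (M for mega), so that 1 count equals 0.0294 to 0.0917 CPM (counts per M counts of the library) and the limit that a count of 0 allows, 3 counts, equals 0.0883 to 0.275 CPM. The reads carry no molecular identifiers, so these limits cover counting error only. The targeted gene Smarcc1 had 116, 75.9, 289 and 97.2 CPM in dorsal controls 1 to 4 and 94.9, 107, 2.26, 44.3 and 24.5 CPM in dorsal mutants 1 to 5. Dorsal mutants 1 and 2 therefore lay within the control range, while in the ventral and axon pieces every mutant was below every control. Dorsal control 3 stood apart from the other dorsal controls: its summed level of 11 mesenchyme markers was 11399 CPM against 1162, 3602 and 1919 CPM in controls 1, 2 and 4, and its summed level of the 10 melanin genes was 43.5 CPM against 1676 to 5579 CPM. Dorsal results are given without it where that bears on them. The 3 libraries of each embryo agreed on Xist and Y-linked genes in 9 of 9 embryos. Y-linked counts exceeded Xist in controls 1 to 4 and in mutants 2, 3 and 4. Mutants 1 and 5 had Xist and no Y-linked counts. Sex was thus unbalanced between the genotypes, and Gpr143 lies on the X chromosome.

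The 10 genes together were most abundant in the dorsal mutants, at 8898 ± 4301 summed CPM (SD, n = 5), which is 0.427 to 1.40% of all counts. Dorsal controls followed at 3163 ± 2743 CPM (SD, n = 4), or 4203 ± 2191 CPM (SD, n = 3) without control 3. Lower down were ventral mutants at 2149 ± 1492 CPM, axon mutants at 821 ± 619 CPM (SD, n = 5 each), ventral controls at 799 ± 485 CPM and axon controls at 195 ± 246 CPM (SD, n = 4 each). In this order all 5 pairs of neighbouring groups overlapped. Each of the 10 genes had its highest group mean in the dorsal mutants, and of the 50 pairs of neighbouring groups formed by ranking each gene on its own, 48 overlapped. The exceptions were Tyr and Gpr143, whose dorsal mutants were all above the next group. Between 9 and 10 of the genes were above 3 counts in each dorsal mutant, against 3 to 8 in each dorsal control, 6 to 8 in each ventral library and 1 to 5 in each axon library.

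**Figure D1:**
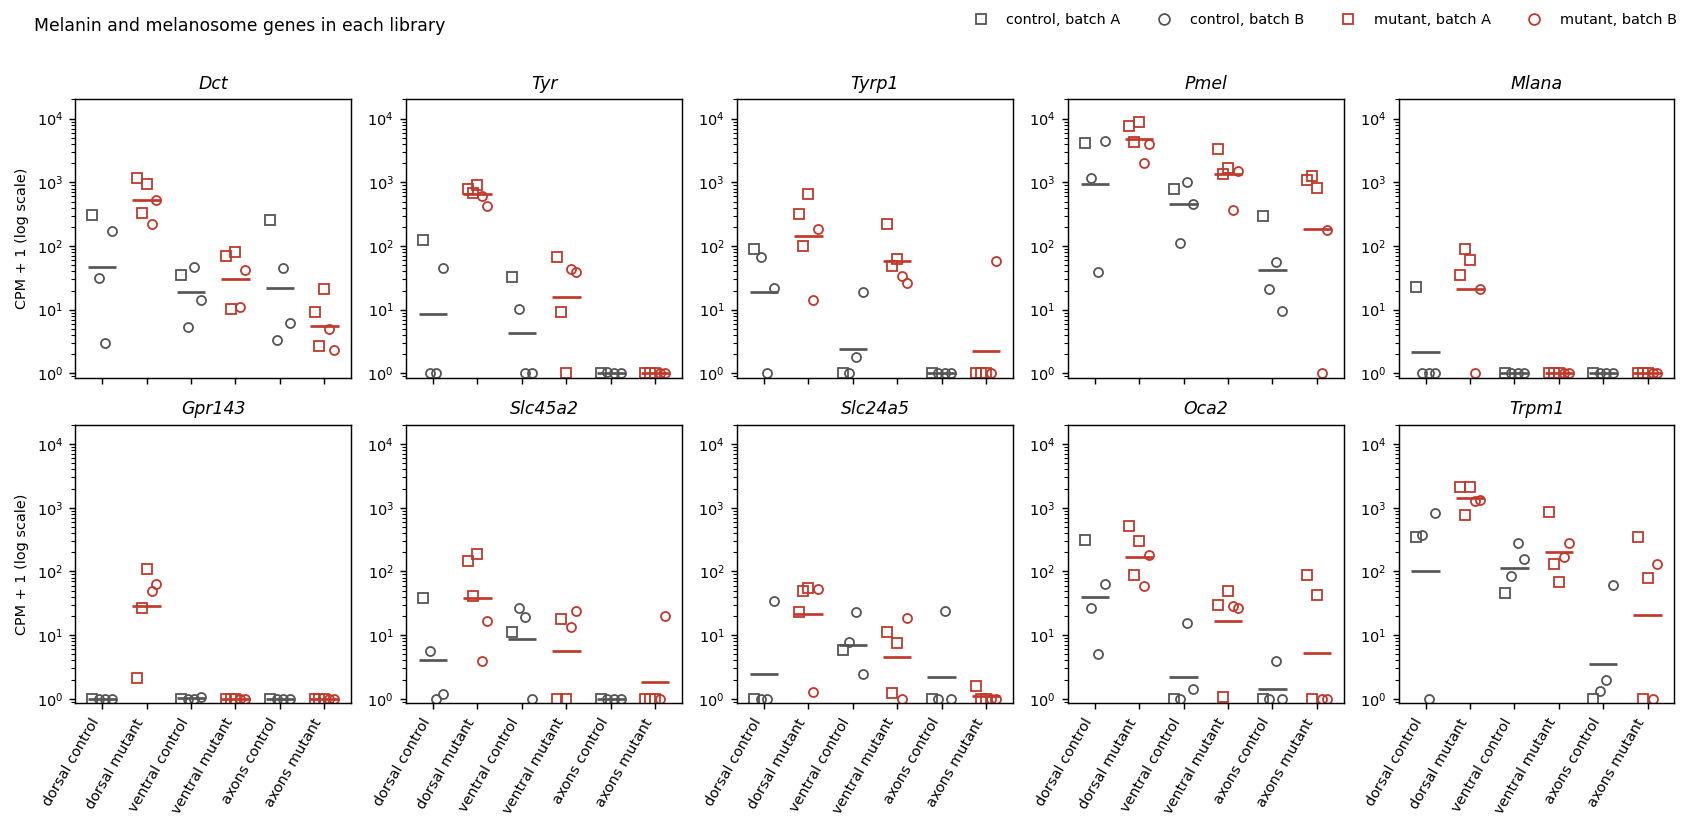
CPM + 1 (log scale) of each of the 10 genes in the 27 libraries, 1 panel per gene, with the 6 groups on the x axis; points are libraries (the shape gives the batch, the colour the genotype), and bars are group means taken on the log scale. Dorsal mutants have the highest bar in all 10 panels, and Gpr143 is at or below 0.0621 CPM in every library outside the dorsal mutants.

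Of the enzymes, Tyr separated the dorsal groups most clearly. Tyr (ENSMUSG00000004651.6, chr7:87424771-87493512, minus strand, mm10) had 122, 0, 0 and 43.7 CPM in dorsal controls 1 to 4 and 798, 668, 920, 612 and 427 CPM in dorsal mutants 1 to 5. Every mutant lay above every control, and 2 of the 4 controls had no Tyr read. The fitted log2 fold change was 4.15 ± 1.89 (SE), and edgeR gave an adjusted p of 0.918 over all genes. The exact permutation test of log2(CPM + 1) gave p = 0.00794 (two-sided), the smallest it can give with 4 and 5 libraries, 0.45 adjusted over all genes, and 0.025 within batches, also the smallest possible. The log2 fold change was between 3.71 and 5.73 whichever library was left out, and the control mean was 41.5 ± 57.7 CPM (SD, n = 4) with control 3 and 55.3 ± 62.0 CPM (SD, n = 3) without it.

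Dct (ENSMUSG00000022129.4, chr14:118012790-118052244, minus strand) encodes dopachrome tautomerase. It had 304, 30.6, 1.95 and 171 CPM in the dorsal controls and 1175, 332, 924, 222 and 533 CPM in the dorsal mutants. Of the 5 mutants, 4 were above the highest control, and mutant 4 was below control 1. The log2 fold change was 2.07 ± 0.89 (SE) with an unadjusted edgeR p of 0.0375 and an adjusted p of 0.918. The exact permutation p was 0.0159 (two-sided), 0.51 adjusted over all genes, and 0.025 within batches. The mean without control 3 was 169 ± 137 CPM in controls (SD, n = 3) against 637 ± 402 CPM in mutants (SD, n = 5).

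Tyrp1 (ENSMUSG00000005994.14, chr4:80834123-80851719) had 87.5, 65.9, 0 and 20.995 CPM in the dorsal controls and 320, 100.3, 655, 13.03 and 187 CPM in the dorsal mutants. The groups overlapped through mutant 4, which was below 3 of the controls. The log2 fold change of 1.93 ± 1.31 (SE) did not pass the test (edgeR adjusted p = 0.964), and leaving out 1 library gave 0.48 to 2.71.

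Among the structural and membrane proteins of the melanosome, Pmel was by far the most abundant and Gpr143 the most restricted. Per kb of exon, so that genes can be compared, Pmel had 2343 CPM in the dorsal mutants, against 108 CPM for Dct, 103 for Trpm1, 96.4 for Tyr and 90.1 for Tyrp1. Oca2, Mlana, Slc45a2, Gpr143 and Slc24a5 had 57.2, 38.0, 26.4, 24.6 and 15.2 CPM per kb. The transcript of the fibril protein was thus more than an order of magnitude above that of each enzyme.

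Pmel (ENSMUSG00000025359.10, chr10:128704195-128720238, with 6.07% of its exonic bases shared with Cdk2 and Dgka) had 4117, 1173, 37.6 and 4433 CPM in the dorsal controls and 7752, 4290, 8753, 2032 and 4027 CPM in the dorsal mutants. The groups overlapped broadly, and controls 1 and 4 were above mutants 4 and 5. Its log2 fold change of 0.75 ± 1.03 (SE) was the smallest of the 10 and did not pass the test (edgeR adjusted p = 1). The control mean was 2440 ± 2173 CPM (SD, n = 4) with control 3 and 3241 ± 1798 CPM (SD, n = 3) without it.

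Gpr143 (ENSMUSG00000025333.10, chrX:152781921-152808646) had no read in any of the 4 dorsal controls and 1.10, 25.4, 108, 48.8 and 61.4 CPM in the dorsal mutants. In the ventral and axon libraries it was at 0 except for 0.0621 CPM in ventral control 4. The dorsal mutants had a mean at least 284-fold higher than the 3-count limit of the dorsal controls. The unadjusted edgeR p was 0.000756 and the adjusted p 0.452. By exact permutation p was 0.0159 (two-sided), 0.51 adjusted over all genes, and 0.025 within batches. DESeq2 called this gene (adjusted p = 2.35e-09). Gpr143 exceeded 10 counts in the dorsal mutants alone and entered the test through them. Its p-values and the DESeq2 call are therefore no independent support. Mlana (ENSMUSG00000024806.4, chr19:29697824-29708634) was found in the dorsal pieces alone, at 21.7, 0, 0 and 0 CPM in the controls and 33.9, 88.2, 59.0, 0 and 19.8 CPM in the mutants. It was seen in 4 of 5 mutants and 1 of 4 controls, with a log2 fold change of 5.32 ± 2.70 (SE), which moved between 1.16 and 10.21 when a library was left out, and an edgeR adjusted p of 0.918.

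The transporters were higher on average in the dorsal mutants with groups that overlapped. Slc45a2 (ENSMUSG00000022243.10, chr15:11000721-11029233) had 37.9, 4.59, 0 and 0.202 CPM in the dorsal controls and 147, 39.6, 190, 2.97 and 15.6 CPM in the mutants. Oca2 (ENSMUSG00000030450.11, chr7:56239760-56536518) had 312, 25.2, 4.01 and 61.7 CPM in the controls and 507, 87.3, 301, 58.0 and 179 CPM in the mutants. Slc24a5 (ENSMUSG00000035183.14, chr2:125068124-125088677), 39.5% of whose exonic bases are shared with Myef2, so that its counts are uncertain, had 0, 0, 0 and 33.8 CPM in the controls and 22.2, 47.4, 54.4, 0.276 and 52.5 CPM in the mutants. For each of the 3 transporters some mutants fell below the highest control. Their log2 fold changes were 2.25 ± 1.35, 1.15 ± 0.76 and 2.69 ± 3.26 (SE), none past the test. Leaving out 1 library gave 1.35 to 3.76 for Slc45a2, 0.45 to 2.01 for Oca2 and 1.28 to 12.01 for Slc24a5.

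The channel gene Trpm1 (ENSMUSG00000030523.18, chr7:64153835-64269775) had 350, 377, 0 and 815 CPM in the dorsal controls and 2124, 782, 2085, 1281 and 1331 CPM in the dorsal mutants. Of the 5 mutants, 4 lay above the highest control and mutant 2 lay just below it. The log2 fold change was 1.95 ± 1.60 (SE, edgeR adjusted p = 1), and the exact permutation gave p = 0.0159 (two-sided), 0.51 adjusted over all genes, and 0.025 within batches. Without control 3, which had no Trpm1 read, the control mean was 514 ± 261 CPM (SD, n = 3) against 1520 ± 575 CPM in mutants (SD, n = 5).

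Taken as a list, 10 of 10 genes had a log2 fold change above 0 in the dorsal pieces, against 48.6% of all genes tested, and their median was 2.16 against -0.04 over all genes. With edgeR 0 of the 10 were called, which required an adjusted p under 0.05 and a log2 fold change beyond 0.58 in size, against 0.0124% of all genes (2 of 16145), and 2 of the 10, Dct and Gpr143, were higher at an unadjusted p under 0.05, against 2.68% of all genes. DESeq2, the tool the study itself used, called 1 of the 10, Gpr143, and 532 of the 13776 genes to which it gave a p. Every mutant was above every control for 2 of the 10, Tyr and Gpr143, against 1.31% of all genes. Gpr143 exceeded 10 counts in the dorsal mutants alone, and Mlana in 4 of them and 1 control. Both entered the test through the group in which they are high, so neither their direction nor their test results are independent results. Leaving out 1 library gave medians from 1.46 (without mutant 5) to 2.765 (without control 4), with 1.80 without control 3. The median was 2.12 without mutant 1 and 2.35 without mutant 2, the dorsal mutants whose Smarcc1 level lay within the control range. It was 1.40 in the 7 embryos with more Y-linked than Xist counts, an alternative chosen after seeing the data. Within batch A (1 control, 3 mutants) every mutant was above the control for 9 of 10 genes, Oca2 being the exception, against 19.4% of all genes. Within batch B (3 controls, 2 mutants) this held for 4 of 10, Dct, Tyr, Gpr143 and Trpm1, against 10.3%.

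**Figure D2:**
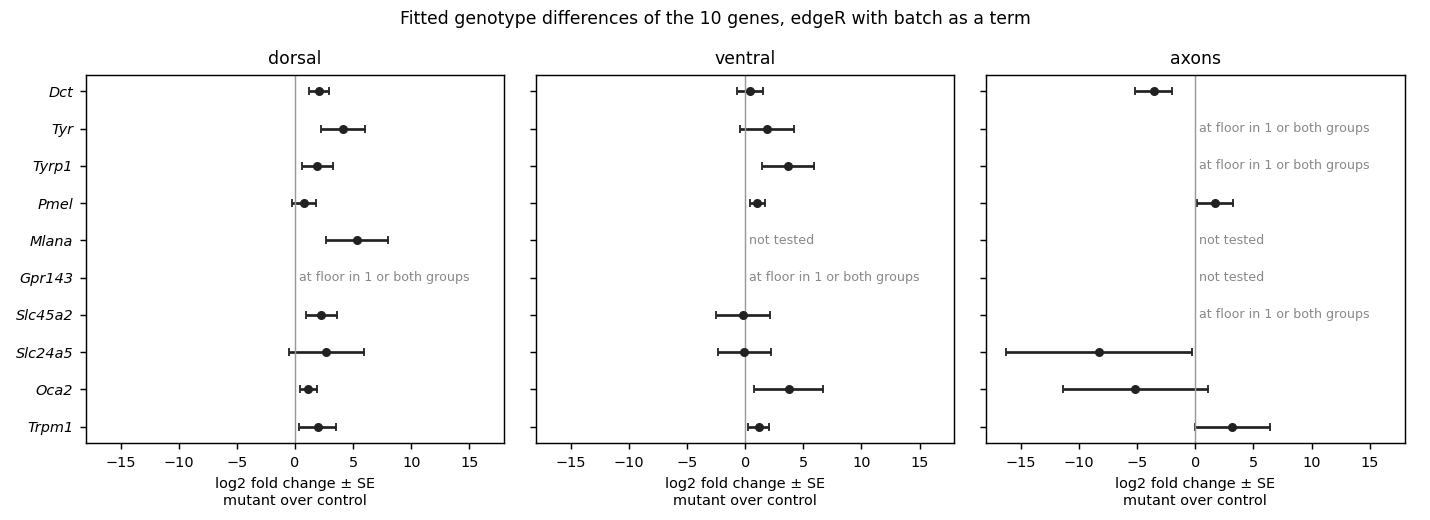
Fitted log2 fold change (mutant over control, edgeR with batch) of the 10 genes in each region, with its standard error; grey words stand in place of a value for genes not tested or at the 3-count limit in 1 or both groups. The 9 dorsal values shown lie above 0, from 0.75 for Pmel to 5.32 for Mlana, while the axon values lie on both sides of 0.

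Marker lists of other cell types differed between the same dorsal libraries. Neural crest melanoblast markers (8 genes) summed to 96.97 to 347 CPM in the 4 controls and to 1.56 to 65.7 CPM in the 5 mutants, with no overlap. Sox10, which defines that lineage, was at 0 in all 5 dorsal mutants, and Foxd3 was at 0 in every library. Both genes were rare in controls too, with Sox10 at 0.208, 20.6, 0 and 0 CPM in dorsal controls 1 to 4. Of the 6 melanoblast genes tested 2 were higher and 4 lower in the mutants by fitted fold change, and Mc1r was among the higher. Ednrb carried most of the sum in controls, at 160 ± 127 CPM (SD, n = 4) against 27.9 ± 19.4 CPM in mutants (SD, n = 5).

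RPE markers outside melanin synthesis (14 genes) summed to 170 to 1298 CPM in controls and 1046 to 2793 CPM in mutants, with Rpe65 at 0 throughout. Retinal progenitor markers (9 genes) summed to 206 to 593 CPM and 518 to 2991 CPM, and astrocyte progenitor markers (12 genes) to 2717 to 3611 CPM and 737 to 1779 CPM. Mesenchyme markers (11 genes) summed to 1162 to 11399 CPM in controls and 55.6 to 395 CPM in mutants, and endothelial markers (8 genes) to 273 to 457 CPM and 64.3 to 471 CPM. Astrocyte progenitor and mesenchyme sums did not overlap between the genotypes. Their part in the melanin gene levels was not tested, and in such pieces fewer cells of a type and less RNA per cell cannot be told apart.

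**Figure D3:**
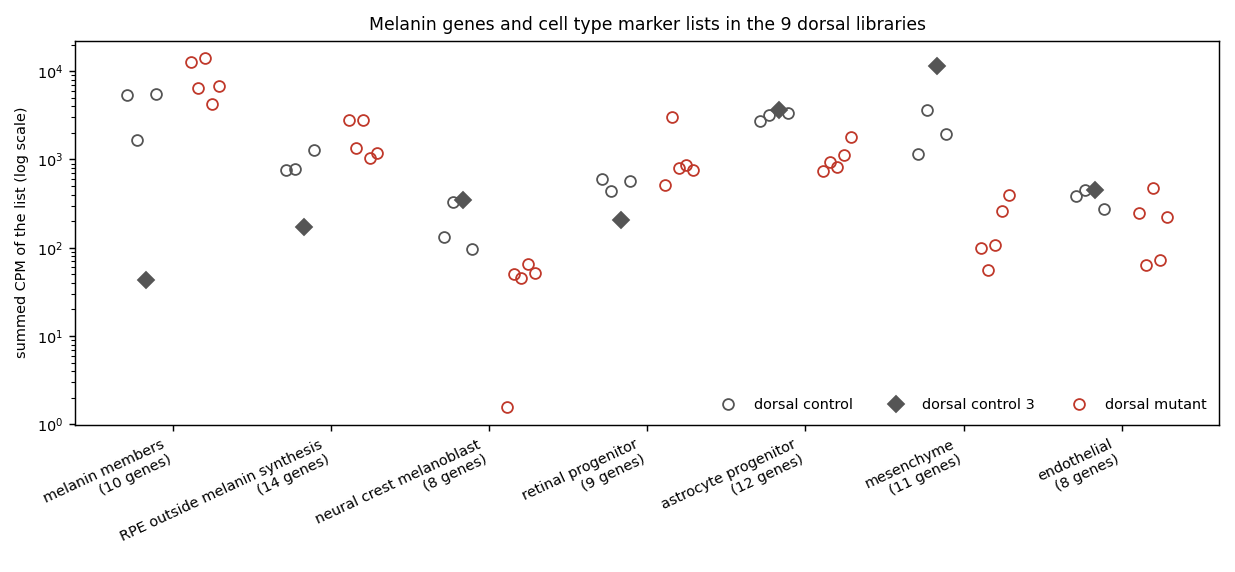
Summed CPM (log scale) of the 10 melanin genes and of 6 marker lists in the 9 dorsal libraries, controls and mutants side by side; points are libraries, and the filled diamond is dorsal control 3. Control 3 has the lowest melanin sum (43.5 CPM) and the highest mesenchyme sum (11399 CPM), and the melanoblast sums of the mutants all lie below those of the controls.

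In the ventral stalk, where the summed level of the 10 genes was lower on average than in the dorsal pieces, Tyrp1 alone separated the genotypes. It was at 0, 0, 0.800 and 17.8 CPM in ventral controls and 222, 47.9, 61.9, 32.8 and 25.5 CPM in ventral mutants. Every mutant was above every control, and the exact permutation test gave p = 0.00794 (two-sided), the smallest possible, and 1 adjusted over all genes. Its log2 fold change was 3.65 ± 2.25 (SE, edgeR adjusted p = 0.999). Pmel had 794, 112, 1018 and 449 CPM in controls and 3390, 1338, 1671, 371 and 1499 CPM in mutants, and 4 of 5 mutants lay above the highest control (log2 fold change 1.02 ± 0.64, SE). Dct had 34.1, 4.35, 46.2 and 13.2 CPM in controls and 69.1, 9.40, 80.8, 10.1 and 41.1 CPM in mutants, which overlapped (0.38 ± 1.13, SE).

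Tyr was low in the ventral pieces, at 32.1, 9.38, 0 and 0 CPM in controls and 65.3, 8.30, 0, 42.7 and 38.0 CPM in mutants, and Trpm1 had 44.8, 83.6, 274 and 158 CPM in controls and 866, 131, 66.7, 168 and 273 CPM in mutants. Mlana had no ventral read. Oca2 was at 0 to 14.3 CPM in controls and 0.0615 to 48.4 CPM in mutants, Slc45a2 at 0 to 25.2 and 0 to 23.2 CPM, and Slc24a5 at 1.43 to 22.1 and 0 to 17.3 CPM. The groups of all these genes overlapped. Of 9 genes tested 6 had a log2 fold change above 0, against 46.8% of all genes, with a median of 1.02 that fell to 0.31 without control 1, 0.42 without mutant 5, 0.61 without mutant 1 and 0.33 in batch B alone. By edgeR 0 of the 9 were called, against 0% of all genes (0 of 16139, with 515 at an unadjusted p under 0.05), and 0 of the 9 had an unadjusted p under 0.05. DESeq2 called 0 of the 9 and 342 of the 13946 genes to which it gave a p. Every mutant was above every control for 1 of the 10 genes, against 0.52% of all genes.

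In the axon pieces most of the 10 genes were at or near the limit of detection. Tyr had 1 read in 1 of 9 libraries, and Mlana and Gpr143 had none. Pmel remained the most abundant on average, at 298, 19.9, 55.3 and 8.47 CPM in controls and 1079, 1236, 820, 0 and 180 CPM in mutants, with overlapping groups. Dct had 260, 2.29, 43.7 and 5.27 CPM in controls and 8.13, 1.66, 19.9, 3.91 and 1.29 CPM in mutants. Dct was thus lower on average in the mutants, opposite to the dorsal pieces, with a log2 fold change of -3.60 ± 1.61 (SE), an unadjusted edgeR p of 0.0435 and an adjusted p of 0.880. Its exact permutation p was 0.222 (two-sided).

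Trpm1 had 0, 0.327, 0.954 and 59.7 CPM in axon controls and 345, 0, 77.5, 0 and 129 CPM in axon mutants. Tyrp1 and Slc45a2 were seen in axon mutant 5 alone, at 58.1 and 19.1 CPM. Oca2 was at 2.86 CPM in 1 control and at 86.1 and 41.1 CPM in 2 mutants. Slc24a5 was at 22.5 CPM in 1 control and 0.572 CPM in 1 mutant. Of 8 genes tested 4 had a log2 fold change above 0, against 42.3% of all genes. Tyr, counted as not above 0, was at the 3-count limit in both groups. Oca2, also not above 0, was fitted at -5.17 ± 6.22 (SE), although its mean was higher in mutants (25.4 against 0.716 CPM). By edgeR 0 of the 8 were called, against 0% of all genes (0 of 14977, with 531 at an unadjusted p under 0.05, Dct among them). DESeq2 called 2 of the 8, Tyrp1 and Slc45a2, and 1233 of the 11880 genes to which it gave a p. The calls of Tyrp1 and Slc45a2 rest on axon mutant 5, the only axon library with reads of these genes. Every mutant was above every control for 0 of the 10, against 0.24% of all genes.

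Because the 3 pieces of an embryo can be compared with each other, the regional pattern was read within embryos, with the embryo as a block in the fit. In the mutants the melanin genes were highest in the dorsal pieces. Dct was higher in the dorsal than in the ventral piece of all 5 mutants, with a log2 fold change of 4.19 ± 0.30 (SE, edgeR adjusted p = 0.0140), and was called. Pmel (1.85 ± 0.21, adjusted p = 0.0554) and Trpm1 (2.79 ± 0.48, adjusted p = 0.255) were higher dorsally in all 5 as well but missed the threshold. Tyr (5.13 ± 1.46), Oca2, Slc24a5 and Gpr143 were also higher in all 5, which makes 7 of the 10 genes against 3.21% of all genes. With 5 embryos the exact sign-flip permutation test cannot go below 0.0625, the value each of these 7 had. Of the 10 genes 1 was called, against 0.0371% of all genes. A log2 fold change above 0 was found for 10 of 10, with a median of 3.34 against 0.006 over all genes. Gpr143 entered the test through the dorsal mutants alone, and Mlana mainly through them. Their direction in these counts is therefore no independent result. The call of Dct was lost without mutant 1, 3, 4 or 5 and without the embryo block (log2 fold change 3.90), while its fold change stayed between 3.95 and 4.36 whichever embryo was left out.

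Against the axon pieces of the mutants, 2 of the 10 genes were called in the dorsal pieces, against 0.266% of all genes. Dct had a log2 fold change of 6.78 ± 0.58 (SE, edgeR adjusted p = 0.00483). Tyr, with no read in the 5 axon mutants, was at least 4219-fold higher dorsally (adjusted p = 0.00483). Dct and Tyr were called under all 7 alternatives run for this comparison. Higher in all 5 embryos were 8 of the 10 genes, all but Mlana and Slc45a2, against 7.79% of all genes. Gpr143 is among these 8, and its direction is again no independent result. Between ventral and axon pieces of the mutants 0 of 8 genes tested were called by edgeR, against 0.259% of all genes. At an unadjusted p under 0.05 were 2 of the 8 and 6.99% of all genes, and DESeq2 called 4 of the 8 and 2705 of 15804 genes. Dct and Pmel, 2 of the 10, were higher ventrally in all 5 embryos, against 7.53% of all genes.

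In controls the dorsal excess varied from embryo to embryo. The summed level of the 10 genes was 5353, 1676, 43.5 and 5579 CPM in the dorsal pieces of controls 1 to 4 and 921, 241, 1394 and 640 CPM in their ventral pieces. It was higher dorsally in 3 of 4, and control 3 had the opposite order. Of the 10 genes 0 were called between dorsal and ventral controls by edgeR, against 0% of all genes (0 of 16118, with 410 genes and 0 of the 10 at an unadjusted p under 0.05). DESeq2 called 2 of the 10, Oca2 as higher dorsally and Slc24a5 as lower dorsally, and 636 of 16118 genes. Higher dorsally in all 4 control embryos were 0 of the 10, against 4.76% of all genes. Without control 3, 4 of the 10 were at an unadjusted p under 0.05, and the median log2 fold change was 2.75 in place of 1.81.

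Between dorsal and axon pieces of the controls 0 of 9 genes tested were called by edgeR, against 0.0126% of all genes. At an unadjusted p under 0.05 were 3 of the 9 and 3.93% of all genes, and DESeq2 called 5 of the 9 and 1062 of 15899 genes. Leaving out control 3 gave 0 calls among the 9 and 4 with an unadjusted p under 0.05. Oca2 was higher dorsally in all 4, 1 of 10 against 8.69% of all genes. Between ventral and axon pieces of the controls 0 of 9 were called by edgeR, against 0% of all genes (0 of 15839, with 418 at an unadjusted p under 0.05), 2 of the 9 had an unadjusted p under 0.05, and DESeq2 called 4 of the 9 and 999 genes in all. Pmel (log2 fold change 3.25 ± 0.77, SE) and Trpm1 (7.44 ± 2.14) were higher ventrally in all 4 control embryos, 2 of 10 against 9.12% of all genes, and had an edgeR adjusted p of 0.902.

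**Figure D4:**
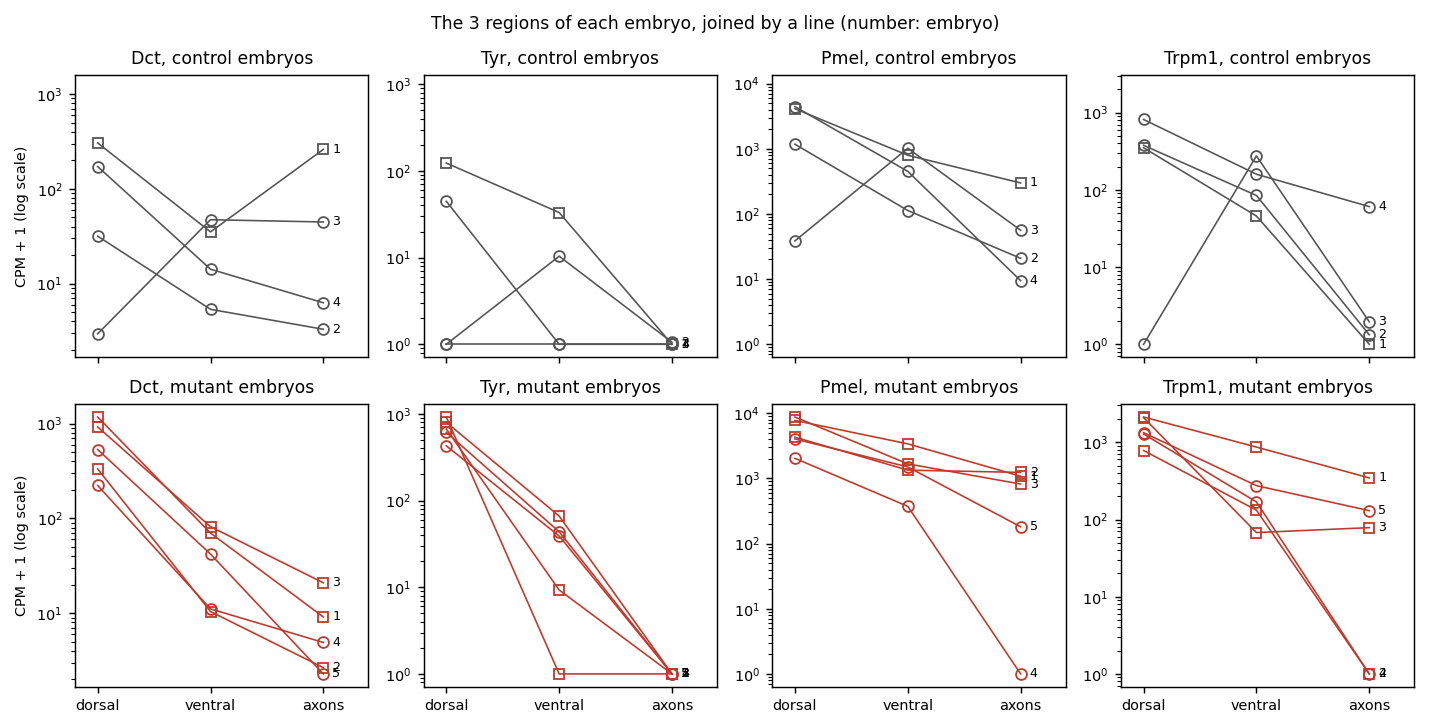
CPM + 1 (log scale) of Dct, Tyr, Pmel and Trpm1 in the dorsal, ventral and axon pieces of each embryo, controls in the upper and mutants in the lower row, with the pieces of 1 embryo joined by a line. Mutant lines fall from dorsal to ventral for all 4 genes in all 5 embryos, while control 3 rises from dorsal to ventral for Dct, Pmel and Trpm1 and control 2 for Tyr.

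Whether the genotype effect itself differed between regions was tested as an interaction over all 27 libraries with the embryo as a block. For Dct the mutant effect was larger in the dorsal than in the axon pieces by 4.86 ± 1.40 (SE) on the log2 scale, with an unadjusted edgeR p of 0.0024 and an adjusted p of 0.733. By edgeR 0 of the 10 were called for dorsal against ventral (0.00612% of all genes), dorsal against axons (0.0122%) and ventral against axons (0%, 0 of 16330 genes). Of the 10 genes 0, 1 and 1 were at an unadjusted p under 0.05 in these tests, against 375, 808 and 636 of all genes. DESeq2 called 1, 3 and 1 of the 10 and 690, 2132 and 1807 of the 16330 genes. Slc24a5 was called as larger dorsally against ventral and against axons, and Dct as larger dorsally against axons. The other calls went the opposite way: Tyrp1 was smaller dorsally than in axons and Slc45a2 smaller ventrally than in axons. Tyrp1 and Slc45a2 had axon reads in mutant 5 alone. The genotype effect is therefore not shown to differ between regions for any of the 10 genes by edgeR.

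The 10 genes did not keep fixed proportions. Pmel took 70.0 to 86.3% of their summed CPM in the 4 dorsal controls (70.0 to 79.5% without control 3) and 47.6 to 66.4% in the 5 dorsal mutants. Tyr took 0 to 2.28% in dorsal controls and 6.20 to 14.3% in dorsal mutants. These ranges did not overlap, as a description with no test. The shares also differed between libraries of similar sum. Dorsal mutant 4, with 4270 summed CPM, held 14.3% Tyr, while ventral mutant 1 with 4651, dorsal control 1 with 5353 and dorsal control 4 with 5579 summed CPM held 1.40, 2.28 and 0.783%. A high share was not confined to the dorsal mutants: ventral mutant 4, with 665.5 summed CPM, held 6.41%.

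**Figure D5:**
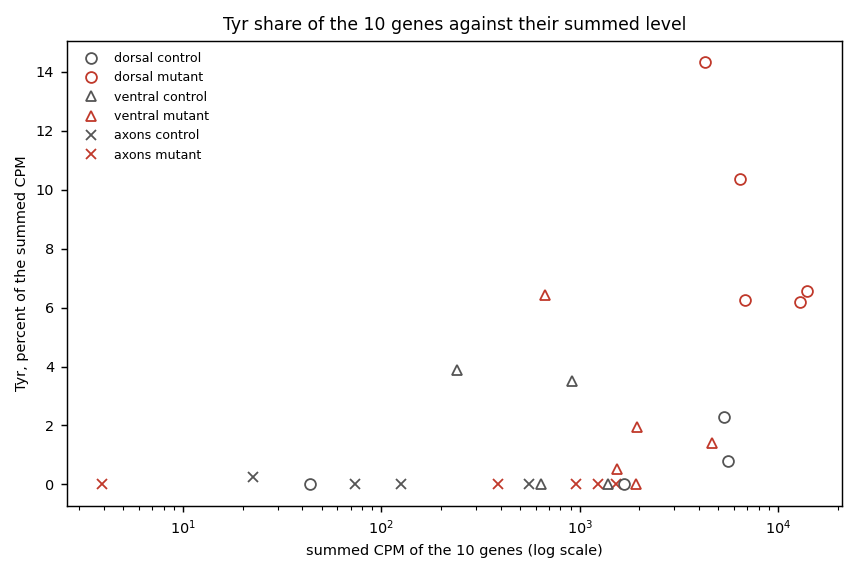
Share of Tyr in the summed CPM of the 10 genes (percent) against that sum (CPM, log scale), 1 point per library, with the shape giving the region and the colour the genotype. The 5 dorsal mutants lie at 6.20 to 14.3%, above the 4 dorsal controls at 0 to 2.28%, also where the sums are alike. Ventral mutant 4 lies at 6.41%, within the range of the dorsal mutants.

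Other genes of the melanosome, taken singly, were split in direction. Of 32 genes for melanosome biogenesis and transport 31 were tested in the dorsal pieces, where 15 were higher and 16 lower in the mutants, with a median log2 fold change of -0.11 against -0.04 over all genes. By edgeR 0 were called and 1 was at an unadjusted p under 0.05, against 5.35% of all genes. It was Cd63 (1169 ± 252 CPM in controls, SD, n = 4, and 2174 ± 828.7 CPM in mutants, SD, n = 5), a tetraspanin that helps sort Pmel. The next 5 by unadjusted p were the melanosomal glycoprotein Gpnmb (9.80 ± 18.8 and 184 ± 187 CPM), the small GTPases Rab32 (0.126 ± 0.161 and 9.07 ± 19.1 CPM) and Rab27a (6.24 ± 10.6 and 70.5 ± 64.8 CPM), melanophilin, Mlph, which links Rab27a to myosin (8.90 ± 6.80 and 1.78 ± 3.58 CPM), and Lyst, mutated in beige mice (24.1 ± 22.3 and 5.55 ± 5.85 CPM). For none of the 31 genes was every mutant on the same side of all controls. The summed level of the 32 genes, of which Cd63 is the largest part, was 1707 to 2289 CPM in dorsal controls and 2447 to 4851 CPM in dorsal mutants, without overlap, as a description with no test.

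Of 13 regulators of melanin genes 11 were tested dorsally, 4 higher and 7 lower. By edgeR 0 were called and 2 were at an unadjusted p under 0.05, against 5.35% of all genes. Pax6, an eye field factor that also acts in the pigment epithelium, had 61.5 ± 30.5 CPM in controls (SD, n = 4) and 303 ± 71.8 CPM in mutants (SD, n = 5), with a log2 fold change of 2.27 ± 0.38 (SE) and an edgeR adjusted p of 0.104. Otx2, which with Mitf specifies the RPE, had 28.2 ± 33.2 and 216 ± 95.1 CPM. For both, every mutant lay above every control, against 1.31% of all genes, and for Sox9 (257 ± 21.8 and 143 ± 39.2 CPM) every mutant lay below. Mitf itself had 94.9 ± 83.1 and 225 ± 124 CPM (0.99 ± 1.17, SE), with overlap. Lef1, a Wnt effector, had 38.0 ± 15.96 and 10.6 ± 8.67 CPM, Mc1r, the melanocortin receptor, had 0.0168 ± 0.0336 and 5.10 ± 7.64 CPM, and Sox10 5.20 ± 10.3 and 0 CPM. In the ventral pieces Otx2 had 0.885 ± 1.77 CPM in controls and 56.3 ± 25.6 CPM in mutants. Every mutant was above every control there too, against 0.52% of all genes.

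Across the 27 libraries the 10 genes correlated positively with each other, with Spearman rho from 0.412 to 0.818 and a median of 0.625 over 45 pairs. Of 12424 other genes compared, those closest to the mean log2(CPM + 1) of the 10 were the gap junction gene Gja1 (rho = 0.897), Col8a1 (0.858), Wls (0.854), Car14 (0.843), Ttr (0.817), Cd59a (0.813), Tspan10 (0.809), Trpm3 (0.798), Rlbp1 (0.787) and Krt18 (0.786). Ttr, for transthyretin, and Rlbp1, for a retinoid-binding protein, are textbook RPE genes and were among the marker genes above. These are descriptions over 27 libraries that share embryos, regions and batches.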

How the data were processed

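Raw counts per gene for 27 libraries were deposited. Per the study's methods the authors ran Seq2Science at default settings (Nextera XT libraries, single-end reads, STAR to mm10, HTSeq); versions, annotation release and strand setting are not given in the sources used here, so exons shared with neighbours are stated. The deposited counts were not scaled. Symbols and positions came from GENCODE M21 (55227 of 55487 identifiers matched), promoters from RefSeq.

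Groups, batches and replicate numbers came from the labels. Library numbers within a genotype were taken as embryos. Nothing shows libraries to be copies (0 identical pairs). Genes that exceeded 10 counts in 3 or more libraries were tested with edgeR 4.0.16 (quasi-likelihood, TMM, robust, legacy, two-sided) in R 4.3.3: genotype within region with batch as a term, regions within genotype with the embryo as a block, and interactions over all libraries. Calls needed a Benjamini-Hochberg adjusted p under 0.05 over all genes tested and an absolute log2 fold change over 0.58. Standard errors were derived from the fold change and F statistic. CPM are counts over library totals. Fold changes against a group at or under 3 counts in every library are given as bounds against 3 counts per library. Exact permutation tests used log2(CPM + 1), over 126 placements of the labels or 40 within batches; figures and summaries used Python 3.11.15. The edgeR and DESeq2 fits of the dorsal genotype comparison were run on simulated counts, with changes placed only in genes above a set mean level. Genes near 0 are not covered by that run.

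Members, lists and tests were chosen with earlier results of these data known. Named genes are the 10 members, Smarcc1, Mitf, Otx2, Sox10, Pax6, up to 6 genes of each of 2 pathway lists with the smallest dorsal p, and the 10 genes most alike; Asip of the regulator list matched no row. Alternatives were RLE scaling, no count filter, DESeq2 1.42.0, no batch term, batch B alone, the replicate number as a block, leaving out each library or embryo, and, chosen after seeing the data, the 7 embryos with more Y-linked than Xist counts. These 7 leave out mutants 1 and 5.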

Additional observations from a re-analysis of the deposited data

Results flagged for a closer look

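In 16 of 55 combinations of gene and group with 4 or 5 libraries, 1 library lay far from the rest by Dixon's criterion, which by chance picks out about 5% of groups. Most were groups in which the other libraries were at or near 0. In axon pieces these were Tyr in control 2 (0.0546 CPM, 1 read), Tyrp1 and Slc45a2 in mutant 5 (58.1 and 19.1 CPM), Slc24a5 in control 3 (22.5 CPM) and mutant 1 (0.572 CPM), Oca2 in control 3 (2.86 CPM) and Trpm1 in control 4 (59.7 CPM). In ventral pieces they were Oca2 in control 3 (14.3 CPM) and Gpr143 in control 4 (0.0621 CPM). In dorsal pieces they were Mlana in control 1 (21.7 CPM) and Slc24a5 in control 4 (33.8 CPM).

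Libraries that lay below the rest were axon mutant 4 for Pmel (0 CPM) and for the sum of the 10 genes (3.91 CPM, all of it Dct), dorsal control 3 for Trpm1 (0 CPM), dorsal mutant 4 for Slc24a5 (0.276 CPM) and ventral mutant 2 for Oca2 (0.0615 CPM). Dorsal control 3 is also the library with the highest mesenchyme sum. The causes were not tested.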

How the results depend on the processing

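Depth sets a limit of 0.0883 to 0.275 CPM on a count of 0. Among counts of genes called or not overlapping, 100 of 108 alternatives that left out a library or embryo and 32 of 48 others stayed within 1.5 times the main count. Most of these main counts were 0, and edgeR called few genes at all, so a count that stayed at 0 says little about stability. Among log2 fold changes of single genes, 228 of 245 and 157 of 173 kept direction and side of the threshold. The cause of each change below was not tested.

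Without the count filter 5 genes were called in dorsal mutants against controls (Tyr, Dct, Gpr143, Pmel and Trpm1; 101 of 26264 genes in all) and 1 in ventral ones (8 of 26874), in place of 0. DESeq2 called 1 in dorsal and 2 in axon mutants against controls. In controls it called 2, 5 and 4 (dorsal against ventral, dorsal against axons, ventral against axons). In the same order it called 8, 9 and 4 in mutants (1007, 2897 and 2705 genes in all), and 1, 3 and 1 in the interactions. Slc24a5 between dorsal and ventral controls, and Tyrp1 and Slc45a2 in the interactions, were called with a negative log2 fold change. The edgeR counts were 0 except 1 and 2 for the dorsal pieces of mutants. The 1 call of dorsal against ventral mutants became 0 without the replicate block, and was 0 to 1 when an embryo was left out (0 without mutant 1, 3, 4 or 5). The count of non-overlapping genes was 4 in batch B alone and 2 to 4 leaving out a library in dorsal pieces (4 without mutant 4 or control 4), and 3 and 1 to 2 in ventral pieces (2 without mutant 2 or 4). With fewer libraries groups separate more easily, so a higher count here is no sign of clearer separation. In dorsal batch B 10.3% of all genes had every mutant above every control. The share was not computed for the other settings.

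Control and mutant libraries of the same number did not deviate together (r from -0.0509 to 0.0279, 0 pairs over 0.1), so the numbers are not taken as pairs; with the number as a replicate block in the dorsal fit 0 of the 10 genes were called, 3 had an unadjusted p under 0.05 and the median log2 fold change was 3.59.

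No dorsal fold change changed sign. Log2 fold changes that did were, in ventral pieces, Dct (-0.40 in the 7 embryos with Y-linked counts, an alternative chosen after seeing the data, and -0.26 to 1.16 leaving out a library), Slc45a2 (0.28 in batch B, -2.25 to 0.26) and Slc24a5 (-4.46 to 0.71); the ventral median was 0.15 in those 7 embryos. In axon pieces they were Pmel (-3.22 in those 7 embryos, -3.15 to 2.30), Slc24a5 (-10.25 to 2.26) and Oca2 (5.04 with no batch term, 4.00 with the replicate block, 2.12 in those 7 embryos, -7.28 to 3.54).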
